A study of Homo sapiens with 4 samples.

Results

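The mRNAs of 10 genes of the translation machinery were followed through RNA immunoprecipitation (RIP) with SRP9, which as a partner of SRP14 holds the Alu end of the RNA of the signal recognition particle. The genes were chosen by name through their Ensembl gene IDs, and all 10 of them were found among the 60676 IDs listed for each library. They are 4 genes of elongation (EEF1A1, EEF2, EEF1G and EEF1B2), 4 of initiation (EIF4A1, EIF4B, EIF3E and EIF3L), the poly(A)-binding protein gene PABPC1, and TPT1. The material was MiaPaCa, an established human pancreatic cancer cell line grown in medium with serum. The libraries fall into 4 groups of 1 library each: RNA recovered with SRP9 v1, RNA recovered with SRP9 v2, and the whole-cell RNA (input) of the v1 and of the v2 experiment. In all 4 groups the cells carried an added SRP9, v1 or v2, fused to a 3xFLAG tag and a nuclear localisation signal and expressed from a pIRES2-acGFP1 vector. The cells were electroporated, selected with Geneticin and sorted for the green fluorescent reporter, so each line is a selected population. The labels describe no removal of the cells' own SRP9. A precipitation without a tagged SRP9 was not analysed here, so RNA bound by SRP9 and RNA carried along in the precipitation cannot be told apart. The study asked what the variants do in the nucleus.

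Elongation factors bring charged tRNAs to the ribosome and move it along the mRNA, while initiation factors unwind the start of the mRNA and recruit the small ribosomal subunit. The signal recognition particle acts on the same machinery in the cytoplasm, where its Alu domain, with SRP9 and SRP14, slows elongation while a nascent chain is brought to the endoplasmic reticulum. Many mRNAs of translation factors and ribosomal proteins begin with a terminal oligopyrimidine (TOP) tract, a C followed by further C or T bases at the 5′ end, through which their translation follows mTORC1 signalling.

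The starts of these genes are shown because a start tract is a known feature of such mRNAs. The genes were chosen by name, and TPT1 among them is known for such a tract. The share of genes with a tract can therefore not be taken as independent of that choice. The windows run from 10 bases before to 19 bases after the RefSeq start, 5′ to 3′ on the gene's strand (RefSeq, GRCh38.p14). Capitals mark a tract, counted as a C followed by at least 4 bases that are each C or T, beginning within 5 bases of the start. Only the gene's own strand was searched. Of the members, 7 matched the RefSeq table of starts by symbol. EIF3E, EIF3L and PABPC1 are named only.
EEF1A1, chr6:73521013-73521042, minus strand: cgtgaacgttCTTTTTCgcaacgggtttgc
EEF2, chr19:3985444-3985473, minus strand: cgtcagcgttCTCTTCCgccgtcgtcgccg
EEF1G, chr11:62573872-62573901, minus strand: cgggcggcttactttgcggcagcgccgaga
EEF1B2 first start, chr2:206159599-206159628, plus strand: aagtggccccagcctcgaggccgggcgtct
EEF1B2 second start, chr2:206159885-206159914, plus strand: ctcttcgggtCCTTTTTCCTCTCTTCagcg
EIF4A1, chr17:7572815-7572844, plus strand: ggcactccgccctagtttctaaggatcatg
EIF4B, chr12:53006446-53006475, plus strand: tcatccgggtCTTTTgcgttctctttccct
TPT1, chr13:45341164-45341193, minus strand: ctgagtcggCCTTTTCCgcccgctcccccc
A tract was found at a start of 5 of the 7 genes, against 25.2% of the 27305 symbols in the table. EEF1A1 and EEF2 each have a tract of 7 bases at the start itself, EEF1B2 has one of 16 bases at its second start, EIF4B has 5 bases, and the 8 bases of TPT1 begin 1 base upstream. EEF1G and EIF4A1 had no such letters within this window. A match describes these letters only, and a RefSeq start a few bases from the start used in these cells would change it.

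The deposited counts summed to 3921361 for RIP v1 and 5211354 for RIP v2, against 50454080 for the v1 input and 58815384 for the v2 input. Levels are given as CPM, the counts of a gene per 1000000 counts of its library. Intervals are 95% exact intervals and cover counting error only, since amplified reads are not independent molecules. Because the IDs of other genes carry no names in the sources used here, marker genes of the cell line and other translation factors were not read.

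All 10 mRNAs were lower in RIP than in input, with both variants. Together they took 0.124% of the counts in RIP v1 (0.121% to 0.128%) and 0.128% in RIP v2 (0.125% to 0.132%), against 0.930% in the v1 input (0.928% to 0.933%) and 0.980% in the v2 input (0.978% to 0.983%). The summed level was thus 7.49 times lower in RIP than in input with v1 and 7.63 times lower with v2. Without EEF1A1 and EEF2, the members with the most reads, the other 8 were 6.91 and 6.34 times lower with v1 and v2. For every one of the 10 mRNAs both RIP libraries lay below both inputs, as they did for 15% of all tested IDs and for 95.5% of those with a mean input level of at least 100 CPM. These are shares of a library's reads, so less of these mRNAs and more of other RNA in the precipitate cannot be told apart.

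**Figure D1:**
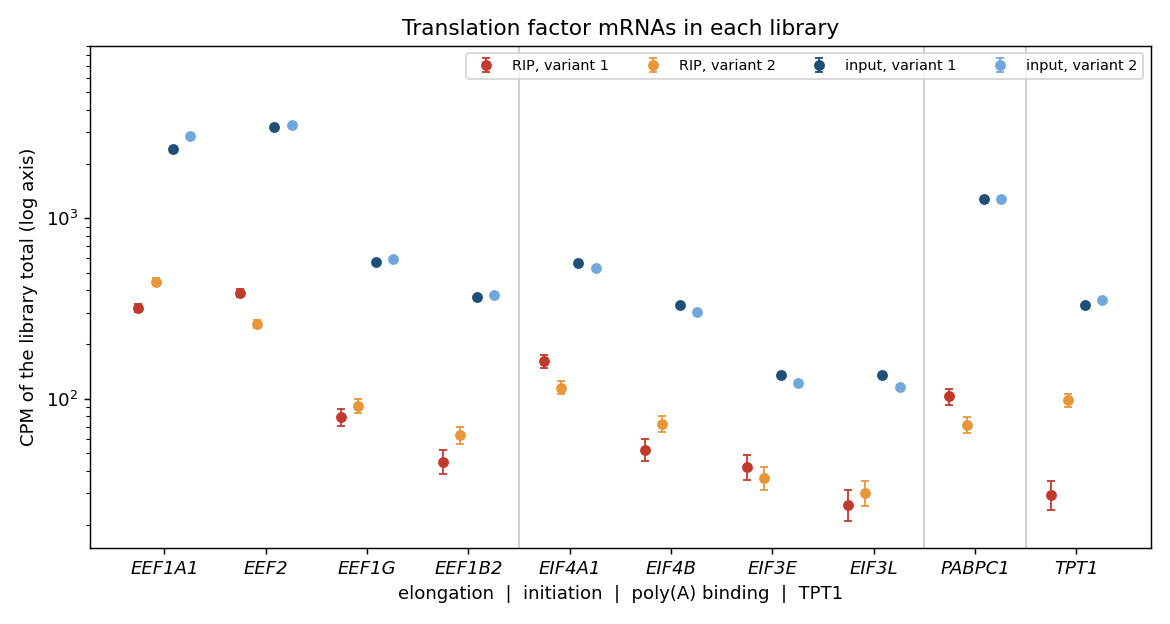
Level of each translation factor mRNA in each library, in CPM on a log axis, with 95% exact Poisson intervals (counting error only, 1 library per point). For every gene both RIP libraries (red, orange) lie below both inputs (dark and light blue), and the RIP points are furthest apart for TPT1, at 29.3 CPM in RIP v1 and 98.4 CPM in RIP v2.

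The comparison of RIP with input was tested over all IDs with the v1 and v2 libraries as the 2 samples of each fraction (edgeR's quasi-likelihood test, TMM scaling). The constructs differ and are no replicates, so what separates v1 from v2 enters the error of this test, and its p-values speak only of these 4 libraries. With a Benjamini-Hochberg adjusted p under 0.05 over 41622 IDs tested, all 10 mRNAs were called lower in RIP and 0 higher. Over all tested IDs 15.8% were called lower and 49.5% higher. These shares depend on the fit, as the 20595 higher calls became 8289 with the construct as a block, 938 without RIP v1 and 1082 without RIP v2, and the 6583 lower calls became 3213 on library totals. The members' lowest count was 101.5, in RIP v1, so none of them entered the test through the inputs alone. Their log2 fold changes ran between -5.05 and -2.90 with a median of -3.77, where the median over all tested IDs was 3.65. With library totals as the scale, in place of TMM, the fit gave members' values between -3.85 and -1.69 with a median of -2.57, and all 10 were called lower again.

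A lower level in RIP was the rule among IDs with high input levels. Of the 2090 tested IDs with a mean input level of at least 100 CPM, a set that holds all 10 members, 98.8% were called lower and 0.0957% higher, with a median log2 fold change of -2.96. The count of members called lower is therefore close to that background. The members' median of -3.77 lay below the lower quartile of this set, which was -3.52. This set and those below are bounded at 100 CPM and were not matched to the members' input level. The members' median level was 467 CPM in the v1 input and 454 CPM in the v2 input. The part of input level in this difference was not tested. Choosing IDs on the inputs favours a lower RIP level. The set was also chosen on 1 input and read in the other experiment. This takes out only the counting error of the input that is read. It cannot take out selection on input level, as 0.144% of the 2090 IDs were at least 2-fold apart between the inputs. Among 2099 IDs with at least 100 CPM in the v1 input, the median log2 ratio of RIP v2 over its own input was -2.95, against -3.56 for the members, and 24.4% of these IDs lay at or below the members' median. Among 2103 IDs chosen on the v2 input, the median of RIP v1 over its own input was -2.94, against -4.06 for the members, and 14.1% lay at or below that. On library totals these medians were -1.79 and -1.76 for the sets with v2 and v1, and the members' were -2.39 and -2.88.

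**Figure D2:**
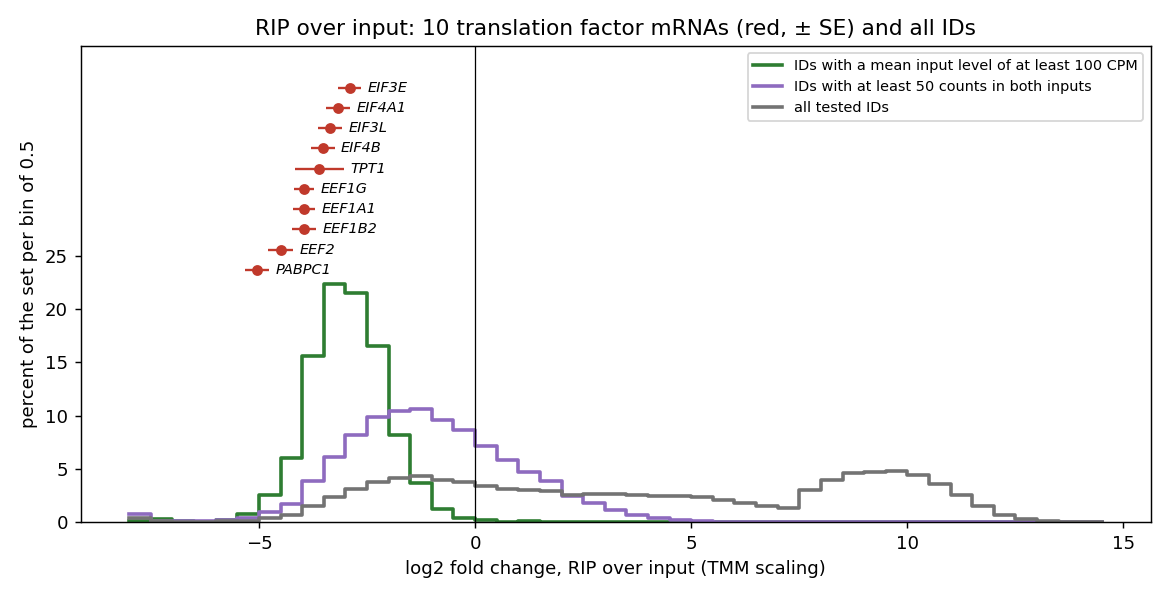
Log2 fold change of RIP over input (TMM scaling) for the 10 translation factor mRNAs (red points with SE bars, stacked by value, their height has no unit) above the distribution of all tested IDs, of IDs that reached 50 counts in each input, and of IDs with at least 100 CPM in the mean of the inputs. The vertical axis gives the percent of each set per bin of 0.5, and the outermost bins hold the values beyond them. The members lie within the range of the 100 CPM set, from its middle (EIF3E, -2.90) to its low end (PABPC1, -5.05).

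Among the elongation genes, EEF1A1 (ENSG00000156508) encodes eEF1A, the GTPase that delivers charged tRNA to the ribosome. It had 319 CPM in RIP v1 and 446 CPM in RIP v2, against 2412 CPM in the v1 input and 2854 CPM in the v2 input. The groups did not overlap, and RIP held 13.2% of the input level with v1 (12.5% to 14.0%) and 15.6% with v2 (15.0% to 16.3%). These shares are on library totals, while the log2 fold changes given by gene here and below are TMM-scaled. Its log2 fold change was -3.96 ± 0.26 (SE, edgeR adjusted p = 0.0006), and -2.76 with library totals as the scale. The SE does not cover this shift between scales. The call was lost with limma-voom, where the log2 fold change was -3.95 and the adjusted p = 0.19. EEF1A1 was the only member whose call any of the alternative fits ended, and its lowest adjusted p among them was 2.5e-34.

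EEF1B2 (ENSG00000114942) and EEF1G (ENSG00000254772) encode subunits of the exchange complex that recharges eEF1A with GTP. EEF1B2 had 44.8 CPM in RIP v1 and 62.8 CPM in RIP v2, against 366 CPM in the v1 input and 377 CPM in the v2 input. EEF1G had 79.0 CPM in RIP v1 and 91.3 CPM in RIP v2, against 570 CPM in the v1 input and 592 CPM in the v2 input. Neither mRNA overlapped between the fractions, and their log2 fold changes were -3.96 ± 0.28 for EEF1B2 and -3.95 ± 0.23 for EEF1G (SE, edgeR adjusted p = 0.0006 for each). The mRNAs of eEF1A and of these exchange subunits thus had fold changes less than 1 SE apart, although EEF1A1 took several times more reads in every library. Of these genes, EEF1G is the one without a start tract in the windows above.

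EEF2 (ENSG00000167658) encodes the GTPase that moves the ribosome by a codon. It had 386 CPM in RIP v1 and 260 CPM in RIP v2, against 3181 CPM in the v1 input and 3280 CPM in the v2 input. RIP held 12.1% of the input level with v1 (11.5% to 12.8%) and 7.93% with v2 (7.52% to 8.37%). With v2 this was the lowest share of the elongation genes, while with v1 it could not be told from that of EEF1B2, at 12.2% (10.5% to 14.2%). The log2 fold change was -4.50 ± 0.28 (SE, edgeR adjusted p = 0.0006), and 4.21% of the IDs with at least 100 CPM in the inputs had a lower one. On library totals, the scale of the shares above, the log2 fold change of EEF2 was -3.30.

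Among the initiation genes, EIF4A1 (ENSG00000161960) encodes the RNA helicase that unwinds the start of mRNAs. It had 162 CPM in RIP v1 and 115 CPM in RIP v2, against 568 CPM in the v1 input and 532 CPM in the v2 input. Its log2 fold change was -3.17 ± 0.27 (SE, edgeR adjusted p = 0.00073). EIF4B (ENSG00000063046), whose protein stimulates that helicase, had 52.1 CPM in RIP v1 and 72.4 CPM in RIP v2, against 329 CPM in the v1 input and 304 CPM in the v2 input. Its log2 fold change was -3.52 ± 0.27 (SE, edgeR adjusted p = 0.00066). The helicase and its stimulating factor thus both fell in RIP, and between the variants their RIP levels went opposite ways.

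EIF3E (ENSG00000104408) and EIF3L (ENSG00000100129) encode subunits of eIF3, the scaffold complex that joins the small ribosomal subunit to the mRNA. EIF3E had 41.8 CPM in RIP v1 and 36.3 CPM in RIP v2, against 135 CPM in the v1 input and 122 CPM in the v2 input. EIF3L had 25.9 CPM in RIP v1 and 30.0 CPM in RIP v2, against 136 CPM in the v1 input and 117 CPM in the v2 input. The groups did not overlap for either subunit. The log2 fold changes were -2.90 ± 0.26 for EIF3E (SE, edgeR adjusted p = 0.00088), the smallest decrease among the members, and -3.35 ± 0.28 for EIF3L (adjusted p = 0.0007). EIF3E sat in the middle of the abundant set, where 52.8% of the IDs had a lower fold change.

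PABPC1 (ENSG00000070756) encodes the cytoplasmic protein that coats the poly(A) tail and links it to the initiation factors at the cap. It had 103 CPM in RIP v1 and 71.8 CPM in RIP v2, against 1276 CPM in the v1 input and 1271 CPM in the v2 input. RIP held 8.04% of the input level with v1 (7.27% to 8.87%) and 5.65% with v2 (5.09% to 6.25%). Its log2 fold change of -5.05 ± 0.28 was the largest decrease of the 10 members (SE, edgeR adjusted p = 0.0006). In the abundant set, 32 of 2090 IDs (1.53%) had a lower one. On library totals, the scale of the shares above, the log2 fold change of PABPC1 was -3.85.

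The share of the input level that remained in RIP was lower for the elongation than for the initiation genes by their point values. With v1 it lay between 12.1% and 13.9% for the 4 elongation genes and between 15.8% and 31.0% for the 4 initiation genes. With v2 it lay between 7.93% and 16.7% for elongation and between 21.7% and 29.7% for initiation. These ranges of point values did not overlap with either variant. With v1 their nearest members cannot be told apart by counting error, as EEF1G at 13.9% had an interval of 12.4% to 15.5% and EIF4B at 15.8% one of 13.7% to 18.1%. The grouping is by known role and the genes are not replicates of it, so no test is given. PABPC1 (8.04% with v1, 5.65% with v2) and TPT1 (8.82% with v1, 27.9% with v2) were placed in neither group. With PABPC1 counted among the initiation genes the ranges would overlap with both variants. With TPT1 counted among the elongation genes they would overlap with v2. The elongation genes also had more input reads, with 366 to 3181 CPM in the v1 input, against 135 to 568 CPM for the initiation genes. The part of input level in this separation was not tested.

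**Figure D3:**
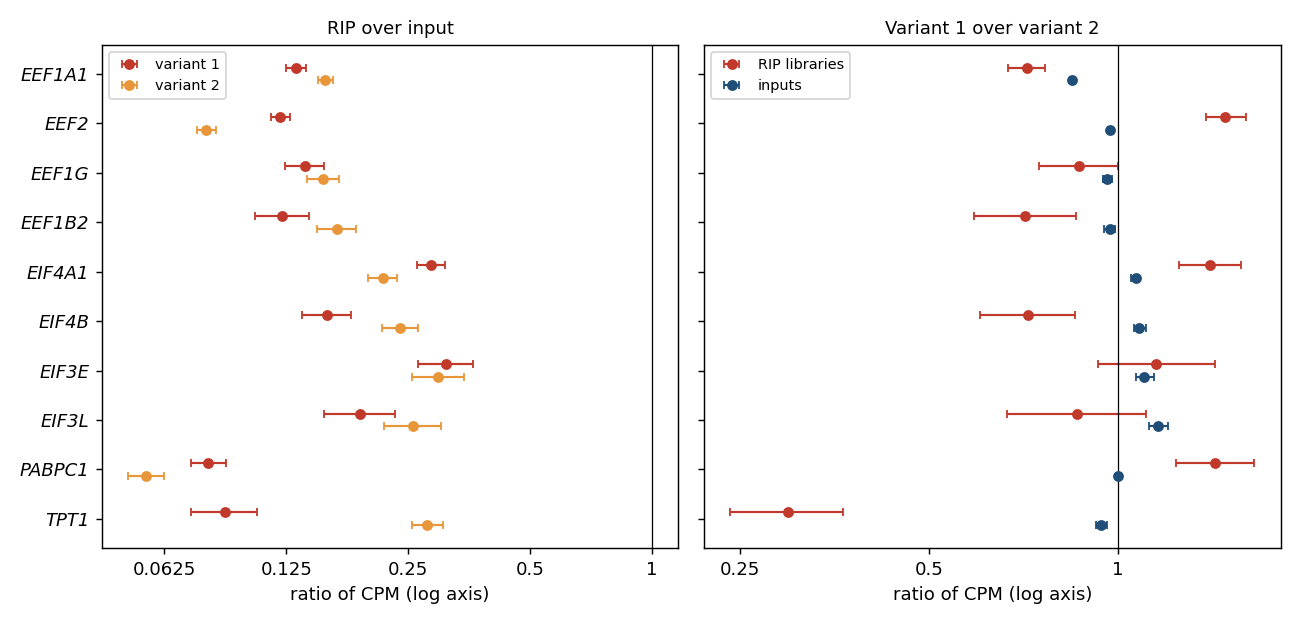
Ratios of CPM for each translation factor mRNA on a log axis, with 95% exact intervals for counting error only. Left, RIP over input for v1 (red) and v2 (orange), where all points lie below 1. Right, v1 over v2 in the RIP libraries (red) and in the inputs (blue), where the inputs lie between 0.845 and 1.16 and TPT1 in RIP stands furthest from 1, at 0.298.

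The variants differed most for TPT1. This gene (ENSG00000133112) encodes the translationally controlled tumour protein, which interacts with eEF1A and its exchange complex. It had 115 counts or 29.3 CPM in RIP v1 (24.2 to 35.2) and 513 counts or 98.4 CPM in RIP v2 (90.1 to 107), against 332 CPM in the v1 input (327 to 337) and 353 CPM in the v2 input (348 to 358). RIP v1 thus held 8.82% of its input level (7.28% to 10.6%), and RIP v2 held 27.9% (25.5% to 30.4%). The level in RIP v1 was 29.8% of that in RIP v2 (24.1% to 36.5%), while the v1 input was at 94.1% of the v2 input (92.2% to 96.1%). TPT1 is the only member with whole-number counts in all 4 libraries, which does not show how reads shared with its pseudogenes were counted.

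The difference between the variants for TPT1 has 1 library on each side and no test. It was -1.73 on the log2 scale (TMM scaling, prior count of 2), and 16.2% of 2083 IDs with at least 100 CPM in the inputs were at least 2-fold apart between the RIP libraries. Over all IDs that reached 50 counts in a RIP library the share was 34.2%. Counted in this direction alone, 35 of the abundant IDs (1.68%) were at or below the value of TPT1. That share is for the member singled out by its largest difference. In the test of RIP against input TPT1 had a log2 fold change of -3.60 with the widest error of the members, 0.56 (SE, edgeR adjusted p = 0.0038). Without RIP v1 its log2 fold change was -3.01, and without RIP v2 it was -4.70, so the size depends on the library while the call was kept.

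The other 9 mRNAs were less than 2-fold apart between the RIP libraries. EEF2 was 1.48 times as high in RIP v1 as in RIP v2 (1.38 to 1.60), PABPC1 1.43 times (1.24 to 1.65) and EIF4A1 1.40 times (1.25 to 1.57). The opposite order was seen for EEF1A1, at 71.5% of its RIP v2 level in RIP v1 (66.7% to 76.6%), for EEF1B2, at 71.2% (58.9% to 85.8%), and for EIF4B, at 71.9% (60.3% to 85.4%). For EEF1G, EIF3E and EIF3L the intervals held 1. These differences do not exceed the spread between the RIP libraries. On the log2 scale the 9 lay between -0.47 and 0.58, within the scaled median absolute deviation of 0.67 over the abundant set. In the inputs 0 members were 2-fold apart. Of 2090 abundant IDs 0.144% were, and of all IDs that reached 50 counts in an input 21.1% were. The members' log2 differences between the inputs lay between -0.22 and 0.24. The scaled median absolute deviation of the inputs over the abundant set was 0.15. EEF1A1 (-0.22), EIF3E (0.16) and EIF3L (0.24) lay beyond it, and the other members within it. By counting error, the interval of the input ratio held 1 for PABPC1 only.

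Within each experiment, RIP over input was at least 2-fold lower for all 10 members, under TMM scaling and on library totals. Over all tested IDs this was so for 23.1% with v1 and for 21.2% with v2, but among IDs with at least 100 CPM in the other experiment's input it was so for 97.8% with v1 and 97.9% with v2 (77.7% and 80.6% on library totals). The members' count is thus close to that of abundant IDs under TMM scaling. The log2 ratio was lower with v1 than with v2 for 6 members, with differences (v1 minus v2) between -1.66 for TPT1 and -0.16 for EEF1G. It was higher with v1 for 4, between 0.05 for EIF3E and 0.61 for EEF2. These differences between the variants were not tested, as each ratio rests on a pair of single libraries.

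The order of the members by reads was largely kept between the fractions. Across the 10 genes the log2 CPM of RIP and of its input had a Pearson correlation of 0.91 with v1 and 0.90 with v2 (Spearman 0.88 and 0.76), against 1.00 between the inputs and 0.86 between the RIP libraries. The points share each gene's transcript length, since CPM is not per length, so these values describe the genes' reads and not the order of their transcript levels. The members' range was 25.9 to 386 CPM in RIP v1 and 30.0 to 446 CPM in RIP v2, against 135 to 3181 CPM in the v1 input and 117 to 3280 CPM in the v2 input.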

How the data were processed

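The reads were processed with HISAT2 2.1.0 and featureCounts of Subread 2.0.0 on GRCh38.p13, per the submitters' processing notes. The authors deposited estimated counts for each Ensembl ID, called raw per the file headers, and some hold fractions of a read. How strand and multi-mapping reads were handled was not given in the sources used here. EEF1A1, EEF1B2, PABPC1 and TPT1 have near-identical pseudogene copies with which reads could have been exchanged, so their values are uncertain to that degree. The other members may share reads as well. EEF1A1, EEF1G, EEF1B2, EIF4A1 and EIF3L held fractions of a read in all 4 libraries. EIF4B did in 3, PABPC1 in 2, EEF2 and EIF3E in 1 each, and TPT1 in 0. No member's row of values is repeated under another ID.

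Rounded counts were filtered by edgeR's expression rule within fractions (minimum count 10), which left 41622 IDs. The kept IDs were then TMM-scaled and tested with edgeR 4.0.16 under R 4.3.3, with 2 residual degrees of freedom. The SE is the log2 fold change over the root of the F statistic. The test was checked on simulated data. The simulated libraries shared a common profile of levels apart from the IDs changed on purpose. The check therefore does not cover the shift between TMM and library totals seen here. Comparisons of single libraries have no test and use TMM-scaled log2 CPM with a prior count of 2, or CPM of library totals. Alternatives used DESeq2 1.42.0, limma 3.58.1, other scalings and filters, a block and left-out libraries. The 3 counts that a 0 allows are 0.765 and 0.576 CPM in RIP v1 and v2, and 0.0595 and 0.051 CPM in the inputs.

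Members take their names from the rule that chose them. Wider lists of translation factors, of TOP mRNAs and of cell type markers were not used here, because the 59792 genes of the reference table carry 0 Ensembl IDs. All 10 members are named. The members and lists were chosen with earlier results of these data known. The labels pair each RIP library with the input of the same transfected cells. The differences between the variants in RIP and in input had a correlation of -0.0045 over tested IDs.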

Additional observations from a re-analysis of the deposited data

Results flagged for a closer look

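For EEF2 and EIF4B the CPM of library totals differed between the variants in opposite directions in the RIP libraries and in the inputs, by intervals that cover counting error only. EEF2 was at 1.48 times the RIP v2 level in RIP v1, and at 0.970 times the v2 level in the v1 input. The input direction of EEF2 turns with the scaling, with a log2 difference of -0.02 under TMM and 0.01 with DESeq2 size factors. EIF4B was at 0.719 times the RIP v2 level in RIP v1, and at 1.08 times the v2 level in the v1 input. The difference was not tested, since each value rests on 1 library.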

How the results depend on the processing

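Over all tested IDs, 20595 were higher in RIP and 6583 lower. With the construct as replicate block (1 residual degree of freedom) 8289 were higher and 5379 lower, and the paired fit kept all 10 members lower, with a highest adjusted p of 0.00078. Library totals gave 3213 lower calls. A fit of only the 15436 IDs that reached 50 counts in each input gave 3418 higher and 3655 lower calls and a median of -2.65 for the members. Leaving out 1 library gave 938 to 18394 higher and 5275 to 6452 lower calls, with the fewest higher calls without RIP v1 (938) and RIP v2 (1082). These fits let the single library of a fraction take its spread from the other fraction. The 10 members stayed lower in every fit, and all were called in each, except EEF1A1 with limma-voom. Otherwise than through fewer IDs or libraries, the cause was not tested. Ratios of single libraries kept the members' counts past 2-fold under each scaling and prior count. Depth limits the RIP values most, where members had 101.5 to 2325.6 counts.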
